A study of Mus musculus with 6 samples.

Results

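LAIR-1 and enzymes that the cytoplasmic tails of inhibitory receptors can recruit are encoded by 5 genes of the count table. The genes are Lair1, Ptpn6 (tyrosine phosphatase SHP-1), Ptpn11 (tyrosine phosphatase SHP-2), Csk (C-terminal SRC kinase) and Inpp5d (inositol phosphatase SHIP-1). They were taken by symbol and not by a cut on their values, though with earlier results of these data known. All 5, out of 14515 genes in the table, passed the low-count filter and were among the 9565 tested. The groups were 3 LAIR-1-deficient mice (Lair1-/-) and 3 wild type mice (Lair1+/+), untreated. From each spleen, 100000 CD8 T cells with a naive surface phenotype, which included CD45, CD3 and CD8 without CD44, were sorted, and 1 library per mouse was made from their total RNA. Strain, age, sex and the design of the Lair1 allele are not given in the labels, so the part of the gene that is deleted is not known here. The question addressed is whether resting cells that lack the receptor carry other transcript levels of SHP-1, SHP-2, CSK and SHIP-1.

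LAIR-1, a collagen receptor on the surface of blood cells, restrains the cell that carries it. Its tail holds immunoreceptor tyrosine-based inhibitory motifs (ITIMs), short stretches around a tyrosine that SRC family kinases phosphorylate once the receptor is engaged. Proteins with SH2 domains, which hold phosphotyrosine through a conserved arginine, then dock there. In human cells SHP-1, SHP-2 and CSK have been found to bind the LAIR-1 tail. SHP-1 and SHP-2 remove phosphates from proteins of antigen receptor signalling, CSK switches off SRC family kinases such as LCK, and SHIP-1, best known from other ITIM receptors, removes a phosphate from the membrane lipid PIP3.

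The coding stretches of the docking motifs are shown because they are what joins the 5 genes. All are from GENCODE vM21 transcripts (GRCm38), written 5′ to 3′ on the coding strand. In the ITIM stretches, both in exon 8 of Lair1-203, the capitals mark the codon of the tyrosine. The first lies at chr7:4009790-4009807 (minus strand, tyrosine codon 228) and the second at chr7:4009703-4009720 (minus strand, tyrosine codon 257).
Lair1 first ITIM: gtgacgTATatccagctg
Lair1 second ITIM: agcacaTATgcagccatc

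In the SH2 stretches the capitals mark the codon of the phosphotyrosine-binding arginine. SHP-1 and SHP-2 carry a pair of SH2 domains each, with arginine codons 30 and 136 in Ptpn6 and 32 and 138 in Ptpn11. CSK and SHIP-1 carry a single SH2 domain, with arginine codons 107 and 34. The stretches lie at chr6:124732773-124732790 and chr6:124728883-124728900 (Ptpn6-202, minus strand, exons 2 and 4), chr5:121172016-121172033 and chr5:121164600-121164617 (Ptpn11-201, minus strand, exons 2 and 4), chr9:57630303-57630320 (Csk-201, minus strand, exon 5) and chr1:87620579-87620596 (Inpp5d-210, plus strand, exon 1).
Ptpn6 first SH2: ttcctggctCGGcccagc
Ptpn6 second SH2: tttcttgtgCGTgagagt
Ptpn11 first SH2: tttttagcaAGGcccagt
Ptpn11 second SH2: ttcctcgttCGAgagagc
Csk SH2: ttcctcgtgCGGgaaagc
Inpp5d SH2: ttccttgtgCGTgccagc

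Gene counts summed to between 5519748 and 7296424 in the LAIR-1-deficient libraries and between 7974206 and 9187017 in the wild type libraries, so every LAIR-1-deficient library was the shallower. Levels are CPM, for which each library's counts were divided by its TMM-scaled total, given as mean ± SD over the 3 mice of a group. Each fold change sets LAIR-1-deficient mice over wild type mice and comes from edgeR's quasi-likelihood test, with p-values adjusted by the Benjamini-Hochberg method over all genes tested and called at an adjusted p under 0.05. Nothing in the labels says more about the mice than their numbers, and p-values measure the spread between these libraries. Both mouse 1 libraries stood apart by Nr4a1, an orphan nuclear receptor gene induced by antigen receptor signals. It was at 588 CPM in LAIR-1-deficient mouse 1 and 473 CPM in wild type mouse 1, against 56.7 to 113 CPM in the other 4 libraries. The fit of each of the 5 genes was therefore repeated without these libraries.

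Of the 5 genes, only Lair1 was called different between the genotypes, and the fitted levels of the effectors were 100.3 to 109% of wild type with no call. The table-wide share of calls was 0.0105% (1 of 9565 genes, called lower), and that gene was Lair1. Of the 4 effectors, 0 were called, and their log2 fold changes lay between 0.004 and 0.13, beside a median of 0.0006 over all genes tested. At an unadjusted p under 0.05, 0 of the 4 effectors passed, where 3.25% of all genes did. DESeq2 and limma-voom also called 0 of the 4, but they called hardly any gene at all. DESeq2 called 1 gene, Lair1, and limma-voom called 0 of 9565.

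Lair1 (ENSMUSG00000055541.17, chr7:4003402-4063204, minus strand, protein coding) had 2, 1 and 1 counts in LAIR-1-deficient mice 1 to 3, against 58, 32 and 43 counts in wild type mice 1 to 3. The lowest wild type library was above every LAIR-1-deficient library, although the wild type libraries also differed among themselves. At the pooled wild type rate and their own depth, the LAIR-1-deficient libraries would have held 35.5, 28.8 and 37.4 Lair1 counts. The observed counts were 5.63%, 3.47% and 2.67% of those, with exact 95% Poisson intervals of 0.682 to 20.3%, 0.088 to 19.4% and 0.0676 to 14.9% that cover counting error only. The upper bounds of 14.9 to 20.3% show how far each library alone limits Lair1, and none of them could tell a residual signal of a few percent from a lower one. In the fit over all libraries Lair1 had a log2 fold change of -4.58 (SE 0.57, edgeR adjusted p = 0.00255), which was a level of 4.18% of wild type with a 95% interval of 1.82 to 9.62%. No gene tested had a larger fold change in either direction. Where in the gene the remaining reads fall is not given by the table. The LAIR-1-deficient mice are Lair1-/- by label. For the effectors, and for the wild type level of Lair1, the number of expressing cells and the RNA per cell cannot be told apart in bulk RNA.

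**Figure D1:**
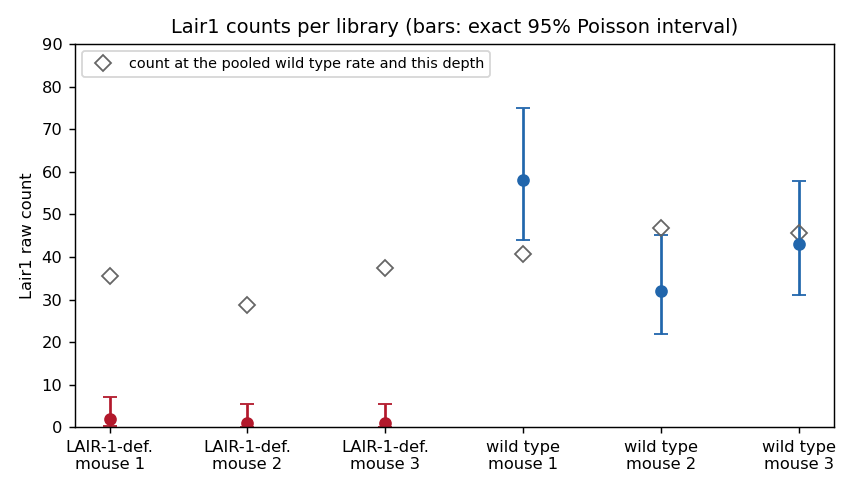
Raw Lair1 counts in each library with exact 95% Poisson intervals; open diamonds give the count that the pooled wild type rate predicts at that library's depth. The 3 LAIR-1-deficient libraries hold 1 or 2 counts where 28.8 to 37.4 would be found at the wild type rate, and wild type mouse 1 lies above and wild type mouse 2 below its own diamond.

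The Lair1 mean was 0.201 ± 0.0784 CPM in LAIR-1-deficient cells and 5.21 ± 1.94 CPM in wild type cells (SD, n = 3 each). In wild type cells this mean CPM was above that of 18.3% of the genes tested. Among wild type mice the count in mouse 1 was 143% of the count that the pooled rate gives (95% Poisson interval 109 to 185%), and in mouse 2 it was 68.4% (46.8 to 96.6%), so the wild type spread of 37.1% (coefficient of variation) exceeded the counting SD of 13.1 to 17.7% per library. After every library was thinned to 5519748 counts, the Lair1 counts were 2, 1 and 1 in LAIR-1-deficient mice and 44, 16 and 25 in wild type mice, and the adjusted p was 0.00938 (edgeR). The call depended on wild type mouse 1: without it the log2 fold change was -4.26 and the adjusted p 0.0592. Without both mouse 1 libraries these were -4.61 and 0.0712.

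Ptpn6 encodes SHP-1, a phosphatase of blood cells. It was at 205, 230 and 253 CPM in LAIR-1-deficient mice 1 to 3, against 235, 244 and 208 CPM in wild type mice 1 to 3. The groups overlapped almost completely, with LAIR-1-deficient mice holding both the lowest and the highest value. The means were 229 ± 24.3 CPM in LAIR-1-deficient cells and 229 ± 18.6 CPM in wild type cells (SD, n = 3 each). The log2 fold change was 0.0038 with a 95% interval of -0.21 to 0.22, or 86.4 to 116% of the wild type level (edgeR adjusted p = 0.9999). Of all genes tested, 97.8% had a larger absolute fold change. Its spread of 10.6% within LAIR-1-deficient and 8.12% within wild type mice was above the counting SD of 2.12 to 2.78%. The gene (chr6:124720707-124738714, minus strand) is overlapped by the antisense gene Gm20531, and how strand was treated in counting is not given, so its reads are not separable from those of that gene.

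Ptpn11 encodes SHP-2, which is present in most cell types and in many receptors acts as an activator of the RAS pathway as well as an ITIM partner. It was at 45.7, 43.8 and 42.0 CPM in LAIR-1-deficient mice 1 to 3, against 40.7, 41.4 and 40.4 CPM in wild type mice 1 to 3. All LAIR-1-deficient values lay above all wild type values, with LAIR-1-deficient mouse 3 and wild type mouse 2 the nearest. The means were 43.8 ± 1.86 CPM in LAIR-1-deficient cells and 40.8 ± 0.496 CPM in wild type cells (SD, n = 3 each), and the log2 fold change of 0.10 had a 95% interval of -0.14 to 0.35 (edgeR adjusted p = 0.9999). The counting SD of a single library was 5.14 to 6.38%, while the wild type libraries differed by only 1.21%, so they lay closer together than counting alone gives on average. The gene (chr5:121130533-121191397, minus strand) is overlapped by the gene model Gm42930 on the same strand. Whether the 2 share exons was not examined, and reads of any shared part are not separable.

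Csk, the kinase that phosphorylates the inhibitory C-terminal tyrosine of SRC family kinases, was the most abundant of the 5 genes by CPM. It was at 319, 311 and 321 CPM in LAIR-1-deficient mice 1 to 3, against 301, 282 and 287 CPM in wild type mice 1 to 3. These groups did not overlap either. The means were 317 ± 5.44 CPM in LAIR-1-deficient cells and 290 ± 10.04 CPM in wild type cells (SD, n = 3 each), and the log2 fold change was 0.13 (SE 0.09, 95% interval -0.05 to 0.31), or 96.4 to 124% of wild type. It did not pass the test, with an unadjusted p of 0.153 and an adjusted p of 0.9999 (edgeR). Of all genes tested, 43.6% had a larger absolute fold change. Csk lies at chr9:57626646-57653631 on the minus strand, with no overlapping gene in the annotation.

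Inpp5d encodes SHIP-1, a phosphatase of blood cells that turns PIP3 into another phosphoinositide. It was at 47.4, 43.9 and 39.0 CPM in LAIR-1-deficient mice 1 to 3, against 41.6, 41.8 and 41.1 CPM in wild type mice 1 to 3. The wild type values fell inside the LAIR-1-deficient range. The means were 43.4 ± 4.25 CPM in LAIR-1-deficient cells and 41.5 ± 0.387 CPM in wild type cells (SD, n = 3 each), and the log2 fold change was 0.07 (95% interval -0.19 to 0.32, edgeR adjusted p = 0.9999). Without both mouse 1 libraries the log2 fold change was -0.0067, and without LAIR-1-deficient mouse 1 alone it was -0.0087. The LAIR-1-deficient order of Inpp5d, highest in mouse 1 and lowest in mouse 3, was the opposite of that of Ptpn6. Inpp5d lies at chr1:87620312-87720507 on the plus strand, with no overlapping gene in the annotation.

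**Figure D2:**
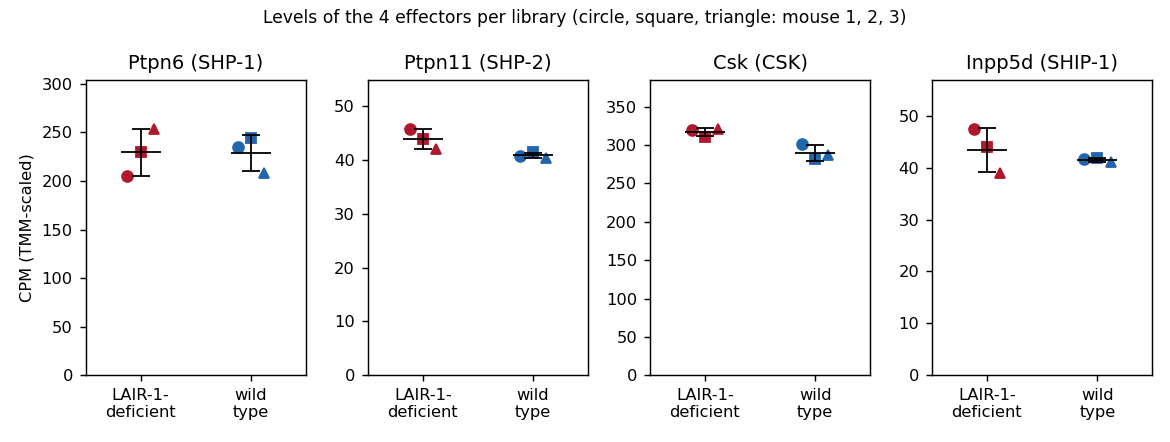
TMM-scaled CPM of Ptpn6, Ptpn11, Csk and Inpp5d per library on axes that start at 0, with the mean and SD (n = 3) of LAIR-1-deficient and wild type mice; symbols mark mouse 1, 2 and 3. Csk and Ptpn11 values do not overlap between groups, at a distance that is small beside the level itself, and Ptpn6 and Inpp5d values do.

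Values of the groups did not overlap for 2 of the 4 effectors, Ptpn11 and Csk, both higher in LAIR-1-deficient mice. Over all genes tested, 8.38% did not overlap in either direction, and 4.3% were higher without overlap. An exact permutation test over mice on log2 CPM, two-sided, gave 0.1 for Ptpn11 and for Csk, which is the smallest p that 3 against 3 allows. It gave 0.6 for Inpp5d and 1 for Ptpn6. A p of 0.1 follows once the groups do not overlap. The separation was present under TMM scaling, RLE scaling (another scaling in edgeR) and library totals. These scalings could hardly differ, as the TMM factors were 0.987 to 1.02. The nearest Ptpn11 values, 42.0 and 41.4 CPM, were closer than the counting SD of 5.14 to 6.38% per library. For Csk the nearest were 311 and 301 CPM, at a counting SD of 1.97 to 2.39%. Neither difference passed the edgeR test under any setting tried. For all 4 effectors the 95% interval lay within 1.5-fold in both directions, as it did for 63.2% of all genes tested.

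Levels of different genes were set side by side per kilobase of annotated exon, since longer transcripts can yield more reads. The sources used here do not say whether reads cover whole transcripts. On this scale Csk and Ptpn6 were the higher pair. Csk was at 84.8 ± 1.45 CPM per kilobase in LAIR-1-deficient cells and 77.5 ± 2.69 in wild type cells, and Ptpn6 at 81.8 ± 8.66 in LAIR-1-deficient cells and 81.6 ± 6.63 in wild type cells (SD, n = 3 each). These neighbours overlapped over the 6 libraries, at 75.4 to 85.8 for Csk and 73.1 to 90.4 for Ptpn6. Ptpn11, at 5.39 to 6.10 CPM per kilobase, and Inpp5d, at 5.13 to 6.24, overlapped with each other and lay below that pair in every library. Lair1 was lowest in every library, at 0.0269 ± 0.0105 CPM per kilobase in LAIR-1-deficient cells and 0.697 ± 0.259 in wild type cells (SD, n = 3 each). With the length of the principal transcript in place of all exons, wild type Lair1 was at 2.09 ± 0.776 CPM per kilobase (SD, n = 3), still below the lowest effector value of 7.30.

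The proportions among effectors overlapped between the genotypes. Per kilobase of annotated exon, Ptpn6 stood to Ptpn11 at a ratio of 11.99, 14.0 and 16.1 in LAIR-1-deficient mice 1 to 3, against 15.4, 15.7 and 13.8 in wild type mice 1 to 3. The size of this ratio rests on the division by length, and its comparison between genotypes does not. The means of 14.1 ± 2.08 in LAIR-1-deficient cells and 15.0 ± 1.06 in wild type cells (SD, n = 3 each) differed by less than the spread between mice (two-sided exact permutation p = 0.7). The ratio of Ptpn11 to Inpp5d was 1.03 ± 0.0594 in LAIR-1-deficient cells and 0.998 ± 0.0055 in wild type cells. The wild type SD is below the counting SD of 5.14 to 6.38% for Ptpn11 and 5.12 to 6.36% for Inpp5d, so it does not measure precision. The value near 1 rests on the length used. Per kilobase of principal transcript, wild type means were 7.38 CPM for Ptpn11 and 8.40 CPM for Inpp5d. Of the 6 ratios among the 4 effectors, exact permutation p-values were between 0.5 and 0.8, and all were 0.8 after Benjamini-Hochberg adjustment over the 6. The smallest p that 3 against 3 allows is 0.1, so this test could call no ratio different. Summed over the 4 effectors, the level was 617, 628 and 655 CPM in LAIR-1-deficient mice 1 to 3, against 618, 609 and 576 CPM in wild type mice 1 to 3. These sums overlapped at the mouse 1 libraries.

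**Figure D3:**
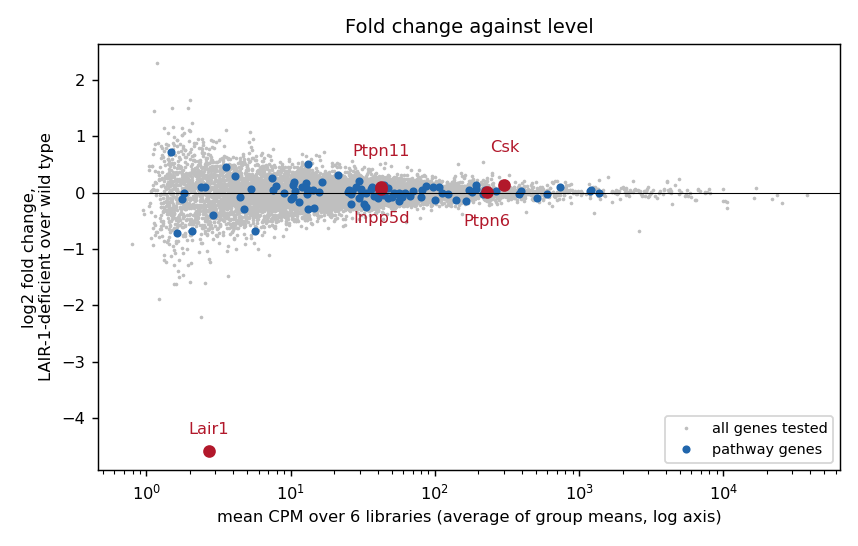
Log2 fold change (LAIR-1-deficient over wild type) of every gene tested against its mean CPM on a log axis, with the 94 tested pathway genes in blue and the 5 genes in red. Lair1 lies far below the cloud at -4.58, and Ptpn6, Ptpn11, Csk and Inpp5d lie on its centre line between 0.004 and 0.13.

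The genes around the effectors were followed in 6 lists, which together held 139 genes besides the 5, with 123 of them in the table and 94 tested. Of these 94, 0 were called higher and 0 lower by edgeR, 2 had an unadjusted p under 0.05 (2.13%, against 3.25% of all genes), and 7 did not overlap between groups (7.45%, against 8.38%). Their median log2 fold change was 0.002, and 48 were positive and 46 negative. DESeq2 and limma-voom also called 0 of the list members, with 1 gene (Lair1) and 0 genes called over all they tested. No named gene below passed the test.

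Kinases of the ITIM tyrosines and the proteins that steer CSK split into 7 positive and 8 negative among the 15 tested. Pag1, a membrane adaptor that holds CSK at the plasma membrane, was at 24.4, 34.0 and 32.1 CPM in LAIR-1-deficient mice 1 to 3, against 32.7, 36.5 and 33.9 CPM in wild type mice 1 to 3, and its log2 fold change was -0.19 (95% interval -0.49 to 0.11). The groups overlapped at LAIR-1-deficient mouse 2. Lime1, another such adaptor, had means of 95.9 ± 7.49 CPM in LAIR-1-deficient cells and 104 ± 4.54 CPM in wild type cells. The following were chosen for their roles after their values were seen. Lck, the main CSK substrate in T cells, was at 1198 ± 62.5 CPM in LAIR-1-deficient cells and 1171 ± 61.3 CPM in wild type cells, and Fyn, its relative, at 227 ± 8.23 CPM in LAIR-1-deficient cells and 220 ± 1.10 CPM in wild type cells. Of the other SRC family kinases, Fgr was at 2.49 ± 0.963 CPM in LAIR-1-deficient cells and 2.31 ± 0.860 CPM in wild type cells. Lyn, with 30 counts over the LAIR-1-deficient and 24 over the wild type libraries, and Blk, with 23 over the LAIR-1-deficient and 15 over the wild type libraries, did not pass the filter on low counts. Yes1 had 0 counts over the LAIR-1-deficient and 2 over the wild type libraries, and Src had 0 over the LAIR-1-deficient and 3 over the wild type libraries. Ptpn22, the phosphatase that pairs with CSK, ranged from 325 to 498 CPM in LAIR-1-deficient mice and from 327 to 473 CPM in wild type mice.

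Other tyrosine phosphatases, 16 of them tested, had a median log2 fold change of -0.02, with 7 positive and 9 negative. Ptpn21 had the smallest p of these, at 1.22 ± 0.441 CPM in LAIR-1-deficient cells and 2.04 ± 0.820 CPM in wild type cells, with a 95% interval of -1.78 to 0.35 on the log2 scale. Ptprs, a receptor-type phosphatase, was at 4.13 ± 0.833 CPM in LAIR-1-deficient cells and 3.01 ± 0.233 CPM in wild type cells, without overlap between groups. Its log2 fold change was 0.45 with a 95% interval of -0.24 to 1.14. Both genes are low, and their intervals reach past 2-fold.

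Phosphatases of phosphoinositides or inositol phosphates other than SHIP-1 split into 11 positive and 9 negative among the 20 tested. Inpp4a, which acts on the product of SHIP-1, was at 13.1, 18.9 and 14.5 CPM in LAIR-1-deficient mice 1 to 3, against 9.33, 9.85 and 13.3 CPM in wild type mice 1 to 3. Only wild type mouse 3 reached the LAIR-1-deficient range. Its log2 fold change was 0.50 (95% interval 0.08 to 0.93) with an unadjusted p of 0.0219 and an adjusted p of 0.9999 (edgeR). Inpp5a, an inositol phosphatase of low level, was at 1.84 ± 0.227 CPM in LAIR-1-deficient cells and 1.11 ± 0.195 CPM in wild type cells. Inppl1, which encodes SHIP-2 and was chosen after its values were seen, was below the filter with 7 summed counts in LAIR-1-deficient and 2 in wild type libraries.

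Scaffolds and adaptors that bind SHP-2 or SHIP-1, listed with some of their partners, split into 11 positive and 8 negative among the 19 tested. All 19 had a 95% interval within 2-fold, as did 85.9% of all genes tested. Sos1, a RAS exchange factor carried by the adaptor GRB2, was at 23.6 ± 3.66 CPM in LAIR-1-deficient cells and 19.0 ± 2.81 CPM in wild type cells. Gab3, a scaffold of SHP-2, was at 13.5, 10.1 and 11.8 CPM in LAIR-1-deficient mice 1 to 3, against 14.8, 14.6 and 14.0 CPM in wild type mice 1 to 3. Its groups did not overlap, and the log2 fold change was -0.28 with a 95% interval of -0.66 to 0.09.

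Proximal signalling proteins on which the effectors act split evenly among the 26 tested, at 13 positive and 13 negative (median log2 fold change 0.01). Tec, a kinase recruited by PIP3, was at 3.60, 5.69 and 3.83 CPM in LAIR-1-deficient mice 1 to 3, against 8.07, 7.004 and 5.72 CPM in wild type mice 1 to 3. The groups did not overlap, with LAIR-1-deficient mouse 2 just under wild type mouse 3, and the log2 fold change of -0.68 (95% interval -1.26 to -0.09) had an adjusted p of 0.9999 (edgeR).

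Transcripts of LAIR-1 ligands were barely detected in these sorted cells, with 10 of 21 collagen and collagen-domain genes in the table and 2 tested. Ligand protein around the cells was not measured. C1qb, a chain of complement C1q, was at 2.50 ± 0.215 CPM in LAIR-1-deficient cells and 3.28 ± 2.23 CPM in wild type cells, and C1qc, its partner chain, at 2.65 ± 1.53 CPM in LAIR-1-deficient cells and 2.47 ± 1.40 CPM in wild type cells. Col1a1, a chain of type I collagen and chosen after its values were seen, had 7 summed counts in LAIR-1-deficient and 16 in wild type libraries.

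**Figure D4:**
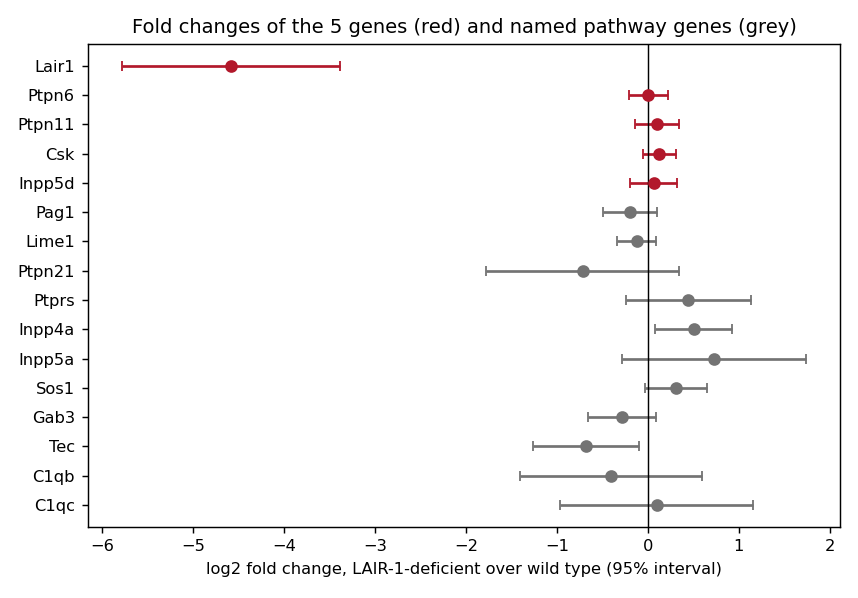
Log2 fold change, LAIR-1-deficient over wild type, with 95% intervals for the 5 genes (red) and for the named genes of smallest unadjusted p in each of the 6 pathway lists (grey). Only the intervals of Lair1, Inpp4a and Tec leave out 0, and among all of them only Lair1 passed the adjusted test.

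Other blood cells express Lair1, Ptpn6 and Inpp5d as well, so their markers are given beside these results. CD8 T cell genes, 9 of 10 in the table, summed to 7109 to 7822 CPM in LAIR-1-deficient and 7282 to 7672 CPM in wild type libraries. Macrophage and monocyte genes, 11 of 12 in the table, summed to 13.0 to 15.4 CPM in LAIR-1-deficient and 11.7 to 15.8 CPM in wild type libraries. Lyz2, a defining gene of myeloid cells, had at most 1 count in any library. B cell genes, 9 of 10 in the table, summed to 33.1 to 41.2 CPM in LAIR-1-deficient and 35.7 to 42.7 CPM in wild type libraries, and dendritic cell genes, all 8 in the table, to 53.4 to 68.6 CPM in LAIR-1-deficient and 54.0 to 67.6 CPM in wild type libraries, nearly all of it Cst3. Itgax, Clec9a, Flt3 and Zbtb46 of the dendritic cell list were at 0 in all 3 LAIR-1-deficient libraries. In the wild type libraries they had 0 to 10 counts each. Other members of the list did not follow them. Xcr1 had 7, 2 and 15 counts in LAIR-1-deficient mice 1 to 3, against 7, 2 and 1 in wild type mice 1 to 3. Siglech and Batf3 had at most 2 counts in any library, and Cst3 overlapped between groups. The part of other cells in the wild type level of Lair1 was not tested. Natural killer genes, 5 of 7 in the table, summed to 41.4 to 58.7 CPM in LAIR-1-deficient and 38.3 to 53.9 CPM in wild type libraries. Nearly all of this was Eomes, while Ncr1, Klrb1c and Klre1 had at most 4 counts in any library and Gzma at most 8. Sums of the CD4 T cell, plasma cell, granulocyte, erythroid and platelet lists also overlapped between groups, and 0 tested genes of any marker list were called.

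The genes with the profiles most like those of the 5 were found by the root mean square difference between log2 CPM values centred on each gene's mean over the 6 libraries. The nearest to Lair1 were Slitrk2, Prdm16 and Hist1h2be, at differences of 1.06, 1.06 and 1.10, which is not close, the median gene being at 1.80. For Ptpn6 they were Rwdd4a, Rab21 and Zcchc8 (0.0267 to 0.0389, median gene 0.207), and for Ptpn11 Taldo1, Polr1c and Dync1h1 (0.0227 to 0.0279, median gene 0.189). For Csk they were Ngdn and Kat2a (0.0228 and 0.0239, median gene 0.190), and for Inpp5d Rpl28, Psmb9 and Rbck1 (0.0161 to 0.0271, median gene 0.199). Among the effectors themselves, Ptpn11 and Inpp5d differed least, by 0.0515, and Ptpn6 and Inpp5d most, by 0.183. With 6 libraries and fold changes this small, such nearness is a description of these libraries only.

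**Figure D5:**
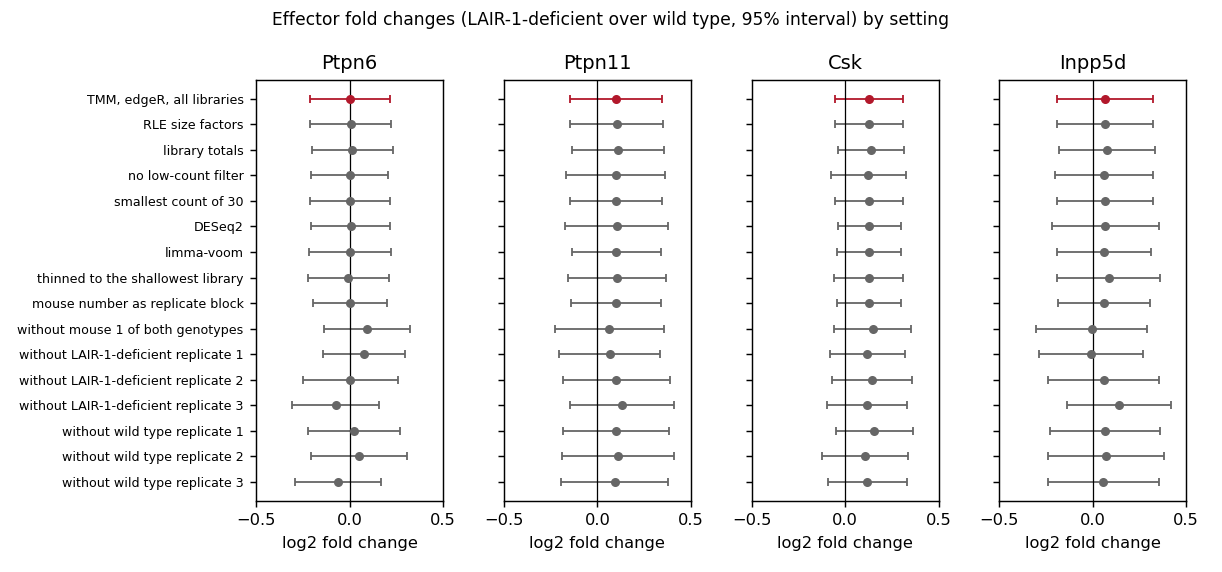
Log2 fold changes of Ptpn6, Ptpn11, Csk and Inpp5d (LAIR-1-deficient over wild type) with 95% intervals under each processing setting and with libraries left out; the red point is the edgeR fit with TMM scaling of all libraries. Every interval includes 0, and point values lie between -0.08 and 0.16 over all settings.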

How the data were processed

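RNA of sorted naive CD8 T cells from 3 LAIR-1-deficient and 3 wild type mice was analysed. Per the file headers, the deposited table gives raw read counts of each gene as whole numbers, with 1 column for each library. The submitters' processing notes name BWA, without a version, and the build mm10; no annotation, counting tool, strand setting or use of molecular identifiers is given in the sources. Columns were matched to mice by the sample descriptions. The 4 spike-in rows, with 0 to 4 counts per library, were left out. A chi-square test between libraries gave 5.39 to 26.1 per gene, where sampling noise gives about 1, so all 6 counted as separate samples.

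Genes were filtered with filterByExpr (smallest count 10), scaled by TMM and tested with edgeR 4.0.16 in R 4.3.3 (robust quasi-likelihood F test, two-sided, no covariate, Benjamini-Hochberg over 9565 genes). Intervals of fold changes come from the fold change and its F statistic. Similar profiles used log2 CPM with a prior count of 2. Alternatives used DESeq2 1.42.0, limma 3.58.1, other scalings and filters, thinning, a replicate block and left-out libraries. The code was tested on simulated data. Coding stretches, lengths and coordinates are from GENCODE vM21 (GRCm38, the assembly of mm10); ITIM and SH2 stretches were found by motif in the translated principal transcript. Older symbols were matched through RefSeq synonyms. The 5 genes and all lists were chosen with earlier results of these data known. All 5 genes are described, together with the 2 tested genes of smallest p per pathway list and the 3 closest profiles per gene. A few genes that this rule picks are not reported here. Intervals from counts cover counting error only.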

Additional observations from a re-analysis of the deposited data

How the results depend on the processing

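Ptpn11 and Csk kept a positive fold change without a call in all 15 alternatives, and 0 pathway genes were called in any. Ptpn6, whose fold change was close to 0, turned negative without a low-count filter (-0.00072) and with thinned counts (-0.0068), and Inpp5d without both mouse 1 libraries (-0.0067). With 1 library left out, log2 fold changes ranged from -0.076 to 0.075 for Ptpn6, from 0.06 to 0.13 for Ptpn11, from 0.11 to 0.16 for Csk and from -0.0087 to 0.14 for Inpp5d. None of the 4 was called in these fits.

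The log2 fold change of Lair1 lay between -4.93 and -4.20 in every alternative that tested it. It was not called by limma-voom (-4.20, adjusted p 0.142) or without both mouse 1 libraries (-4.61, adjusted p 0.0712), and the cause was not tested. With 1 library left out it ranged from -4.93 to -4.26, with adjusted p from 0.00236 to 0.0592, above the threshold only without wild type mouse 1. Across all alternatives the adjusted p was between 1.54e-10 and 0.142. A smallest count of 30 removed Lair1 from the test and left 0 genes called (267 at an unadjusted p under 0.05).

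The count of genes called was 0 with limma-voom (302 at an unadjusted p under 0.05) and 0 without both mouse 1 libraries (440). It was 3 without a filter (Lair1, Prdm16 and Bcl9l) and 0 to 2 with 1 library left out, where Bcl9l or Tcf7l1 joined Lair1. With mouse number as a replicate block 1 gene was called, Lair1, at a log2 fold change of -4.61 (edgeR adjusted p = 0.000266). At an unadjusted p under 0.05 there were 448 genes with this block and 311 without it. Same-numbered mice deviated together only in part, with correlations of 0.29, 0.01 and 0.07. The highest was that of the mouse 1 libraries, while LAIR-1-deficient mouse 2 correlated best with wild type mouse 3 (0.18). By chi-square per gene, LAIR-1-deficient mouse 1 was nearer wild type mouse 1 (7.88) than LAIR-1-deficient mice 2 and 3 (16.4 and 19.2). The lowest values, 5.39 and 5.40, were between mice of different number and genotype. The labels do not say that the numbers pair the mice, so the main fit did not pair them. Counting error was largest for Lair1, at 1 or 2 counts per LAIR-1-deficient library, where the wild type rate would give 28.8 to 37.4 at the same depth. It was smaller for the effectors, at 246 counts or more per library.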
